A study of Rattus norvegicus with 71 samples.

Results

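The genes described here form the scaffold beneath excitatory and inhibitory postsynaptic membranes and the adhesion molecules that join the 2 sides of a synapse. They were chosen by gene symbol, from a list of 31 postsynaptic scaffold and synaptic adhesion genes, many of them linked to autism. Of these, 29 had a row among the 17494 genes of the count table, and all 29 passed the expression filters. Lrrtm1 and Ptprd were not analysed here.

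RNA-sequencing was performed on 71 wild-type Sprague-Dawley rat pups at postnatal day (PND) 2, using 1 coronal slice per brain. Their dams had been immunized before pregnancy, so that the pups met maternal autoantibody-related autism autoantibodies (MARA-ABS) before birth. Control dams received saline with Freund's adjuvant, and exposed dams received the same adjuvant with peptides of the proteins that name each pattern, so adjuvant was common to every group. The groups were 24 control animals from 7 litters, 8 CRMP1+CRMP2 animals from 4 litters, 25 LDHA/B+CRMP1+STIP1 animals from 9 litters, 6 CRMP1+GDA animals from 3 litters and 8 STIP1+NSE animals from 4 litters. Batch 1 comprised 16 LDHA/B+CRMP1+STIP1 animals with 12 controls. The remaining 9 of that pattern, 12 more controls and every animal of the other patterns made up batch 2. The batches were processed and sequenced separately, and for the 3 patterns found only in batch 2 the control animals of batch 1 have no exposed counterpart. Exposure was given to the dam and is the same for all pups of a litter, and the animals used as replicates here include littermates.

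The postsynaptic density is a protein mesh under the synaptic membrane. Membrane-associated guanylate kinases of the Dlg family anchor receptors and adhesion molecules in it, Dlgap proteins connect them to Shank proteins, and Homer proteins tie Shank to metabotropic glutamate receptors. Neuroligins and Lrrtm proteins reach across the cleft to presynaptic neurexins, and calcium/calmodulin-dependent kinase II, built from Camk2a and Camk2b subunits, is among the most abundant enzymes of the density. In the rodent forebrain many of these genes are already transcribed around birth, while most synapses form in the following weeks.

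Sums of region markers differed between the batches, and every comparison that spans the batches includes this difference. Library totals ran from 24880182 to 36234952 counts, with medians between 27312200 and 29181468 in the 7 combinations of group and batch. Summed over 5 thalamus markers (Tcf7l2, Lef1, Gbx2, Lhx9 and Slc17a6, with all 5 raised in the batch 2 controls), expression was 48.9 to 125 CPM (counts scaled by the size of the library) in the 12 batch 1 controls and 269 to 944 CPM in the 12 batch 2 controls, so the ranges did not overlap. The 6 markers of cortical and hippocampal excitatory neurons summed to 1142 to 2004 CPM in batch 1 controls and to 734 to 1136 CPM in batch 2 controls, again without overlap, with 5 of 6 lower and 1 higher in batch 2. Within batch 2, CRMP1+CRMP2 replicates 2 and 3 had thalamus sums of 63.1 and 201 CPM and cortical sums of 1473 and 1584 CPM, below and above all 12 batch 2 controls respectively, as the plot of marker sums shows. LDHA/B+CRMP1+STIP1 replicates 1 and 2 of batch 2 had the same profile, with thalamus sums of 99.5 and 74.8 CPM and cortical sums of 1261 and 1406 CPM. STIP1+NSE replicate 2 had a thalamus sum of 135 CPM, with a cortical sum of 968 CPM inside the control range. Pineal markers (4 genes) exceeded 20 CPM in 5 libraries, all of them exposed animals of batch 2, among them CRMP1+CRMP2 replicate 2 at 229 CPM and replicate 6 at 63.4 CPM. The sample labels name hippocampus with cortical and subcortical structures, and the series text names frontal cortex and hypothalamus. In bulk RNA, fewer cells of a type and less RNA per cell cannot be told apart.

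**Figure D1:**
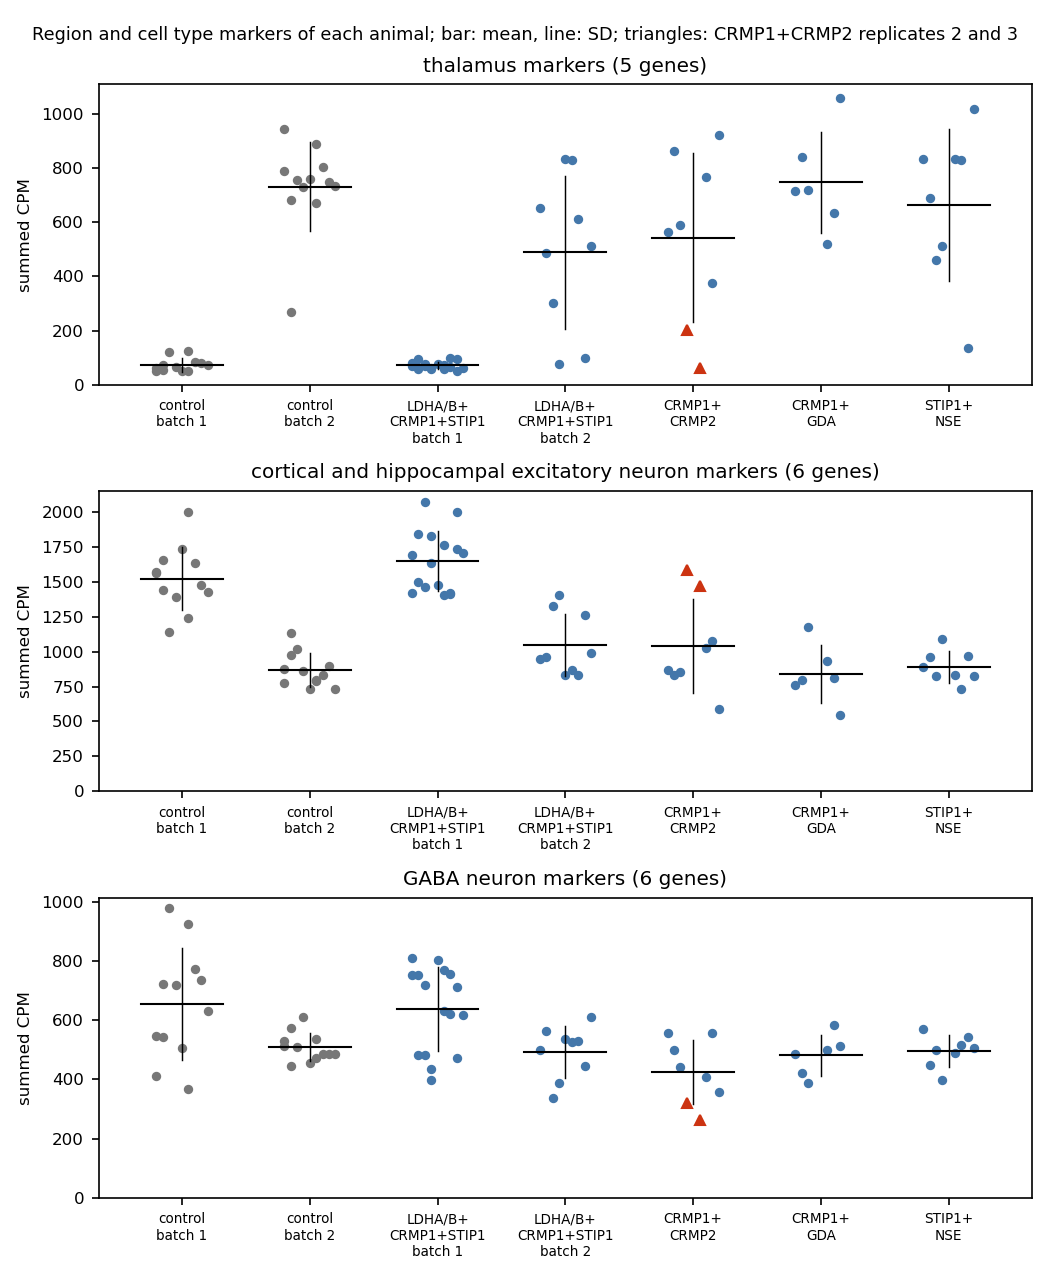
Summed CPM (y axis, from 0) of markers of thalamus, of cortical and hippocampal excitatory neurons and of GABA neurons for each animal, by group and batch (x axis), with the mean (bar) and SD (line). Batch 1 animals sit at the bottom of the thalamus panel, and the triangles mark CRMP1+CRMP2 replicates 2 and 3, with thalamus sums of 63.1 and 201 CPM.

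The levels of the genes, in RPKM (CPM divided by the exon length in kilobases), covered about 2 orders of magnitude in control animals. The PSD-95 gene Dlg4, the main scaffold of excitatory synapses, was the highest over all 71 animals with a median of 214 RPKM and a range of 179 to 243 RPKM. Camk2b followed with a median of 210 RPKM, then the receptor tyrosine phosphatase Ptprs with 192 RPKM and Nrxn2 with 192 RPKM. The ranges of these 4 genes over animals overlapped, so their order is not resolved. Camk2a, the partner of Camk2b in the adult enzyme, had a median of 79.6 RPKM and a range of 35.2 to 145 RPKM, below the range of Camk2b (153 to 274 RPKM) in every animal.

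Within families the levels were far apart. Among Dlg genes the median was 214 RPKM for Dlg4, 49.9 RPKM for Dlg2 (PSD-93), 40.1 RPKM for Dlg3 (SAP102) and 8.85 RPKM for Dlg1 (SAP97). Shank1 stood at 129 RPKM, Shank3 at 35.1 RPKM and Shank2 at 25.6 RPKM, and the lowest Shank1 animal (85.5 RPKM) was above the highest Shank3 animal (46.3 RPKM). Among neuroligins, Nlgn2, the form of inhibitory synapses, had the highest median at 116 RPKM, followed by Nlgn3 at 64.9 RPKM and Nlgn1, the form of excitatory synapses, at 18.9 RPKM, with no overlap of their ranges. The inhibitory scaffold gephyrin (Gphn) stood at 33 RPKM. The lowest genes were Dlgap2 at 4.78 RPKM and Il1rapl1, an X-linked partner of presynaptic phosphatases, at 2.36 RPKM. Read support follows CPM, and Il1rapl1 had the fewest reads, with a median of 5.11 CPM over all 71 animals. Dlgap2 (17.7 CPM) and Homer3 (18.4 CPM) came next. In batch 1 controls, Homer3 (16.6 CPM) and Lrrtm4 (18.9 CPM) had lower medians than Dlgap2 (19.7 CPM).

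**Figure D2:**
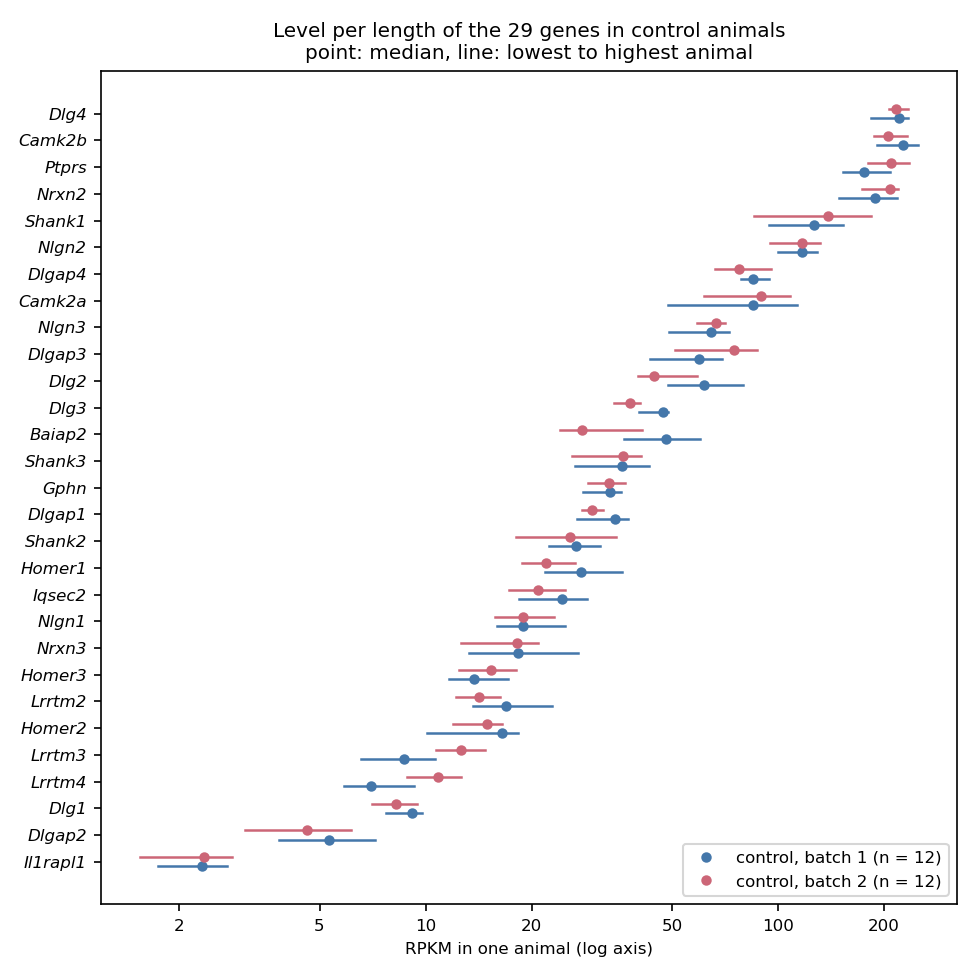
Level of each of the 29 genes in control animals in RPKM (x axis, log scale), with the median (point) and the lowest to highest animal (line) for batch 1 (n = 12) and batch 2 (n = 12). Levels run from Il1rapl1 at about 2.3 RPKM to Dlg4, Camk2b, Ptprs and Nrxn2 near 200 RPKM, and Baiap2, Lrrtm3 and Lrrtm4 show the widest separation between the batches.

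The spread between animals of a group was small for most of these genes. The within-group SD of log2 CPM had a median of 0.17 over the 29 genes, beside 0.20 over all 12477 genes tested. Dlg4 was the steadiest at 0.09, and Nlgn2 (0.10), Dlgap1 (0.11), Dlg3 (0.11) and Dlgap4 (0.11) were close to it. Camk2a varied most, with an SD of 0.37, followed by Nrxn3 at 0.31, Baiap2 at 0.28 and Dlgap2 at 0.28. Littermates resembled each other, with an intraclass correlation for litter whose median was 0.26 over the 29 genes and 0.27 over all genes. This correlation was above 0 for 27 of the 29 genes and for 11246 of all 12477 genes tested. It was highest for Shank2 at 0.55 and Shank1 at 0.48.

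The largest differences among these genes lay between the control animals of the 2 batches, a comparison that involves no antibody exposure. Of the 29 genes, 15 passed an adjusted p under 0.1 in edgeR's quasi-likelihood test (51.7%), where 41.5% of all genes tested did. Of these, 10 were lower in batch 2, where 20.2% of all genes were called lower, and 5 were higher, where 21.3% were. The median log2 fold change over the 29 genes was -0.02, and that over all genes was 0.00173.

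Among the scaffolds, most of the calls were decreases. Baiap2 (IRSp53; rn7 chr10:105223132-105284634, plus strand, 14 exons), which connects the density to actin, ranged from 36.5 to 60.1 RPKM in batch 1 controls with a median of 48.2 RPKM, and from 24.0 to 41.2 RPKM in batch 2 controls with a median of 27.8 RPKM. The ranges met only at their edges, and the log2 fold change was -0.74 ± 0.08 (SE, adjusted p = 8.03e-08, edgeR). In the Dlg family, Dlg2 (-0.42 ± 0.07, adjusted p = 3e-05, edgeR), Dlg3 (-0.25 ± 0.04, adjusted p = 2.09e-05, edgeR) and Dlg1 (-0.11 ± 0.05, adjusted p = 0.0993, edgeR) were lower on the log2 scale. Dlg4 did not pass, with a log2 difference of 0.01 and a 95% interval of -0.06 to 0.09. Dlgap1, Dlgap2 and Dlgap4 were lower by log2 fold changes of -0.19, -0.30 and -0.13, while their relative Dlgap3 (SAPAP3) was higher by 0.32 ± 0.07 (adjusted p = 0.00145, edgeR). Homer1 (-0.30) and the Arf exchange factor Iqsec2 (-0.20) were lower, and none of the 3 Shank genes, Homer2, Homer3 or Gphn passed.

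The adhesion genes with calls mostly rose. Lrrtm4 (rn7 chr4:112548560-113336791, plus strand, 2 exons), a partner of neurexins and heparan sulfate proteoglycans, ranged from 5.85 to 9.26 RPKM in batch 1 controls and from 8.86 to 12.6 RPKM in batch 2 controls, a log2 fold change of 0.57 ± 0.07 (adjusted p = 5.03e-07, edgeR). Lrrtm3 (rn7 chr20:24515627-24689669, plus strand, 3 exons) ranged from 6.54 to 10.6 RPKM and from 10.7 to 14.7 RPKM, a log2 fold change of 0.54 ± 0.07 (adjusted p = 5.84e-07, edgeR). It was the 1 gene of 29 (3.45%) whose CPM ranges did not overlap between the batches, where 1.59% of all genes did not. Ptprs (0.23) and Nrxn2 (0.13) were also higher, whereas Lrrtm2 was lower (-0.24). None of the 3 neuroligins, Nrxn3 or Il1rapl1 passed, nor did Camk2a (0.05, 95% interval -0.21 to 0.31) or Camk2b. With the litter as a random effect 10 of the 15 calls were kept, and those of Dlg1, Dlgap2, Dlgap4, Iqsec2 and Nrxn2 were lost (adjusted p = 0.364, 0.139, 0.129, 0.109 and 0.26, limma voom). Thalamus markers rose and cortical markers fell in the same comparison, by median log2 fold changes of 2.77 and -0.81, and choroid plexus markers rose in 6 of 6 genes. Of the general neuron markers 3 of 6 were lower and none higher (median -0.11), as were 3 of 6 GABA neuron markers (median -0.46). Of the radial glia markers 3 of 6 were higher and 1 lower, and of the astrocyte markers 2 of 5 were higher and 1 lower. Their part in the differences of the scaffold and adhesion genes was not tested, and slice content, batch processing and litter cannot be told apart here.

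**Figure D3:**
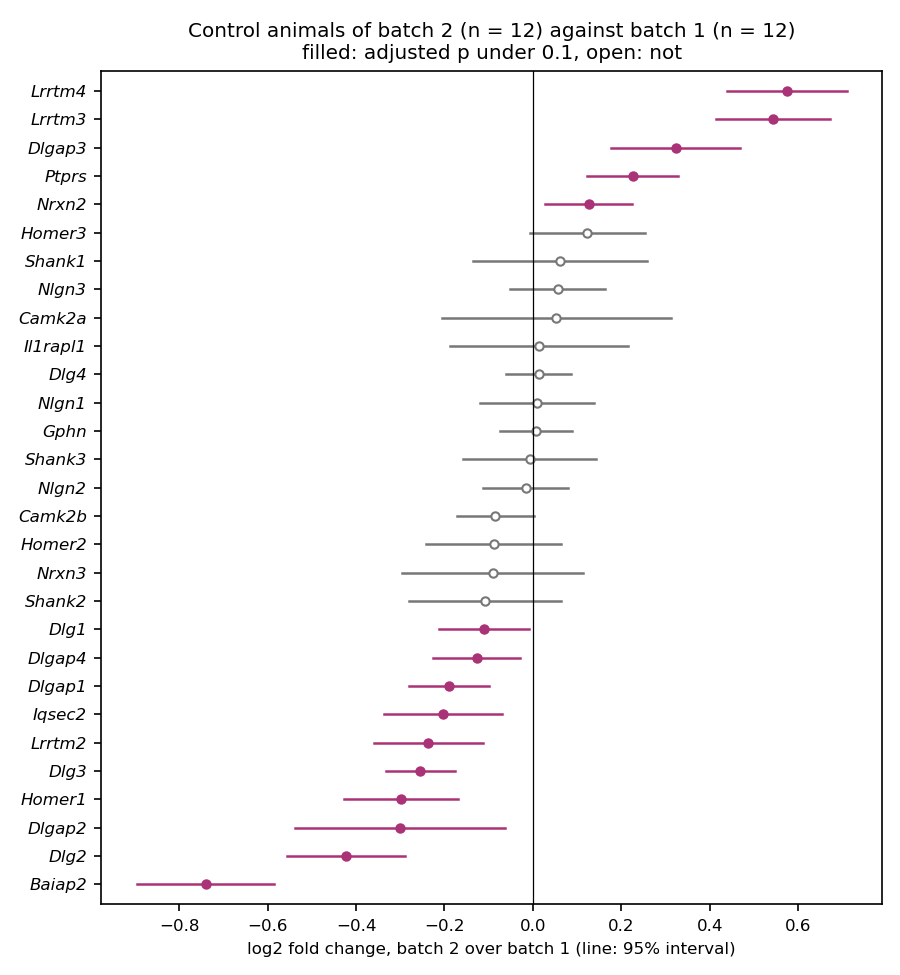
Log2 fold change of each of the 29 genes between batch 2 controls (n = 12) and batch 1 controls (n = 12), with 95% intervals (x axis) and genes ordered by size (y axis); filled points passed an adjusted p under 0.1. Baiap2 lies at -0.74 and Lrrtm4 and Lrrtm3 at 0.57 and 0.54.

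Among 77 measured companion genes (other postsynaptic and adhesion genes, 81 listed), 44 were called in the batch comparison (57.1%), 20 higher and 24 lower, where 41.5% of all genes were called, 21.3% higher and 20.2% lower. The smallest p-values belonged to Cbln1 (log2 fold change 1.75 ± 0.09, adjusted p = 5.91e-13, edgeR), Cbln2 (1.14 ± 0.11, adjusted p = 3.01e-08, edgeR), both secreted bridges between neurexins and postsynaptic receptors, and Lrfn5 (0.51 ± 0.07, adjusted p = 1.64e-06, edgeR), an adhesion molecule.

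Lrrtm3 and Lrrtm4 were higher in the batch 2 controls and Baiap2 was lower. The 250 bases before the start of these 3 genes, those with the largest batch difference, are shown. They come from RefSeq on build GRCr8, at chr10:105721306-105721555 for Baiap2, chr20:24514054-24514303 for Lrrtm3 and chr4:114104380-114104629 for Lrrtm4, all on the plus strand and written 5′ to 3′. Capitals mark any match, on either strand, to 5 promoter motifs. The GC box bound by Sp1 was searched as GGGCGG. The box named for its letters CCAAT is bound by the NF-Y complex. The TATA box, which positions the start of transcription, was searched as TATAAA. The core of the cAMP response element (CRE) was searched as TGACG. The core of the element bound by NRF1 was searched as TGCGCA.
Baiap2: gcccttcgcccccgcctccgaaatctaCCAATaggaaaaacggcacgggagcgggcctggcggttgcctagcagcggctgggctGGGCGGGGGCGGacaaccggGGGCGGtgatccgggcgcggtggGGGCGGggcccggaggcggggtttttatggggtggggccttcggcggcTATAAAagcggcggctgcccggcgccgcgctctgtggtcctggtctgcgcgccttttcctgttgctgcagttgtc
Lrrtm3: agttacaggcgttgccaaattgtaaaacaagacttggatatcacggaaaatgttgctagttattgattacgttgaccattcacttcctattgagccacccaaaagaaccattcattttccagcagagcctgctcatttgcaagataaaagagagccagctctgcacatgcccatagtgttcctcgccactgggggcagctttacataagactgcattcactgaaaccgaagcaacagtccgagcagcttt
Lrrtm4: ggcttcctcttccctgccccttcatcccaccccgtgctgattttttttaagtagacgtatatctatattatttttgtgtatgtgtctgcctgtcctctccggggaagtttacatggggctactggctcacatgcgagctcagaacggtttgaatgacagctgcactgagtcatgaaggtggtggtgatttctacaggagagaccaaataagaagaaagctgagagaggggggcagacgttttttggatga
The Baiap2 window held 4 GC boxes, 1 CCAAT box and 1 TATA box, and those of Lrrtm3 and Lrrtm4 held none of the 5 motifs. The GC content was 70.8% for Baiap2, 44.8% for Lrrtm3 and 47.6% for Lrrtm4. Any part of these sequence features in the batch difference was not tested. Of the 29 genes, 22 matched a RefSeq entry by symbol, and a GC box was present in 6 of them (27.3%), where 31.2% of 30708 promoters held it. The CCAAT box was present in 7 of 22 (34.1% of all promoters), the CRE core in 3 (18.6%), the TATA box in 2 (13%) and the NRF1 core in 2 (6.3%). The median GC content of the 22 windows was 58%, beside 51.6% for all promoters.

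Turning to exposure, CRMP1+CRMP2 was the only pattern in which any of these genes passed the threshold. Against the 24 controls, 3 of the 29 genes (10.3%) were called, where 11.4% of all 12691 genes tested were, so the share was near the background. All 3 were lower, where 6.56% of all genes were called lower. They were Dlgap3, which links PSD-95 to Shank, Dlg4 itself, and Camk2a. An unadjusted p under 0.05 was reached by 4 of 29 genes, where 24.4% of all genes reached it. The median log2 fold change over the 29 genes was 0.01, with 16 estimates above 0 and 13 below.

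Dlgap3 (rn7 chr5:139492853-139562625, plus strand, 35 exons) ranged from 154 to 290 CPM in the 8 CRMP1+CRMP2 animals with a median of 231 CPM, from 198 to 339 CPM in batch 2 controls with a median of 290 CPM, and from 168 to 270 CPM in batch 1 controls with a median of 232 CPM. All 8 animals lay below the batch 2 control median, 6 were inside the batch 2 control range, and the exposed median was near that of the batch 1 controls. The log2 fold change was -0.31 ± 0.07 (SE, adjusted p = 0.0138, edgeR). The 2 animals below every batch 2 control were replicates 2 (168 CPM) and 3 (154 CPM), the libraries poor in thalamus markers.

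Dlg4 (rn7 chr10:54741101-54767155, plus strand, 20 exons) ranged from 550 to 658 CPM in CRMP1+CRMP2 animals with a median of 606 CPM, from 635 to 719 CPM in batch 2 controls with a median of 665 CPM, and from 563 to 720 CPM in batch 1 controls with a median of 677 CPM. The groups overlapped, but 5 of the 8 animals were below every batch 2 control and all 8 were below the batch 2 control median. The log2 fold change was -0.16 ± 0.04 (adjusted p = 0.0162, edgeR). By litter, 3 of 4 CRMP1+CRMP2 litters had a mean below that of every batch 2 control litter. Lower Dlg4 was not limited to this pattern. Below every batch 2 control were also 2 of 8 animals under STIP1+NSE, 3 of 6 under CRMP1+GDA and 3 of 9 for LDHA/B+CRMP1+STIP1 in batch 2. Of their litters, 1 of 4, 1 of 3 and 2 of 5 had such a low mean, in the same order.

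Camk2a (rn7 chr18:54378784-54438030, plus strand, 18 exons) ranged from 53.2 to 153 CPM in CRMP1+CRMP2 animals with a median of 113 CPM, from 93.0 to 164 CPM in batch 2 controls with a median of 135 CPM, and from 73.6 to 171 CPM in batch 1 controls with a median of 128 CPM. The ranges overlapped broadly, with 6 of 8 animals inside the batch 2 control range and 1 litter of 4 below every batch 2 control litter. The log2 fold change was -0.39 ± 0.14 (adjusted p = 0.0946, edgeR), just inside the threshold. Nrxn2 was just outside it, with -0.13 ± 0.05 (adjusted p = 0.104, edgeR).

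**Figure D4:**
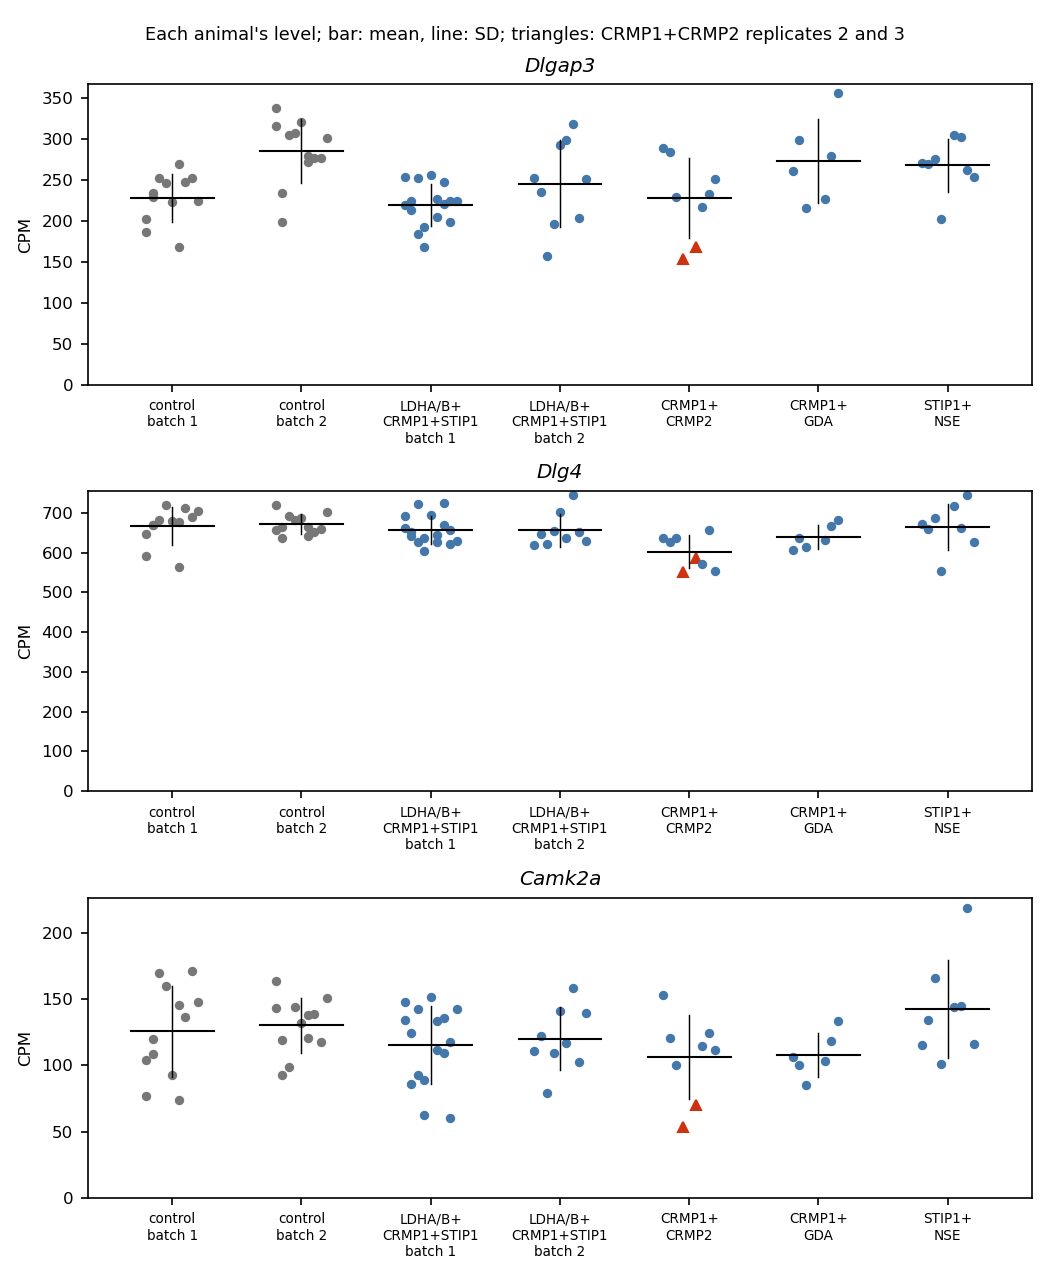
CPM of Dlgap3, Dlg4 and Camk2a (y axis, from 0) for each animal by group and batch (x axis), with the mean (bar) and SD (line). The triangles mark CRMP1+CRMP2 replicates 2 and 3, at 168 and 154 CPM for Dlgap3.

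These calls changed when animals were left out and with how litters were treated. Leaving out animals also leaves fewer replicates. Without replicates 2 and 3, 0 of 29 genes passed in edgeR (2 at an unadjusted p under 0.05), with log2 fold changes of -0.22 for Dlgap3, -0.13 for Dlg4 and -0.20 for Camk2a. Without the litter of replicates 3 and 4, 0 passed as well, and the count over all genes in that fit is not given here. With the litter as a random effect in limma voom, 0 passed, with adjusted p of 0.123 for Dlgap3, 0.134 for Dlg4 and 0.221 for Camk2a. Within batch 2 alone, 1 of 29 genes passed (Dlg4, -0.15 ± 0.04, adjusted p = 0.0998, edgeR), where 1.01% of all genes did, while Dlgap3 had -0.34 ± 0.10 (adjusted p = 0.117, edgeR). The direction of all 3 genes was down in each of these fits. Of the 1445 calls over all genes, nearly all were likewise lost once replicates 2 and 3 were left out, and in the limma voom fit. The 0 of 29 in those fits is thus near the background and not particular to these genes.

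In the same comparison 3 of 6 GABA neuron markers, 2 of 6 neuron markers and 2 of 6 oligodendrocyte lineage markers were called lower, and 6 of 6 choroid plexus and 4 of 4 pineal markers were called higher, with no thalamus marker called of 5. Choroid plexus sums were 179 to 3295 CPM in CRMP1+CRMP2, 125 to 2843 CPM in batch 2 controls and 4.04 to 112 CPM in batch 1 controls. Their medians were 1088 CPM in CRMP1+CRMP2, 700 CPM in batch 2 controls and 1296 CPM in LDHA/B+CRMP1+STIP1 of batch 2. Pineal sums had medians of 5.10 CPM in CRMP1+CRMP2 and 3.87 CPM in batch 2 controls, with replicates 2 and 6 at 229 and 63.4 CPM. Among the other markers, 1 of 6 for radial glia and 1 of 5 for astrocytes were lower and 1 of 6 for cortical neurons was higher. GABA neuron markers summed to less than the 446 to 611 CPM of the batch 2 controls in 5 of the 8 CRMP1+CRMP2 animals, namely replicates 2 (261 CPM), 3 (322 CPM), 4 (357 CPM), 6 (409 CPM) and 7 (444 CPM). Below that range in batch 2 were also LDHA/B+CRMP1+STIP1 replicates 2 and 9 (389 and 336 CPM). So were CRMP1+GDA replicates 1 and 3 (422 and 389 CPM) and STIP1+NSE replicate 3 (398 CPM). With the thalamus marker sum as a covariate beside the surrogate variable, 4 genes passed, Nrxn2 being the fourth. The share of all genes called in that fit is not given here, and 11.4% were called without the covariate. The count of 4 is therefore not read as a result about these genes. The log2 fold changes were -0.31 for Dlgap3, -0.16 for Dlg4 and -0.40 for Camk2a. The surrogate variable was fitted to the same samples, so the part of thalamus content by itself was not tested. The part of the GABA neuron, neuron, oligodendrocyte lineage, choroid plexus and pineal markers in the lower Dlgap3, Dlg4 and Camk2a was not tested with a covariate.

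The 250 bases before the start of Dlgap3 (RefSeq, GRCr8, chr5:144800015-144800264, plus strand) and of Dlg4 (chr10:55239534-55239783, plus strand) are shown as the scaffold pair with the smallest p-values under CRMP1+CRMP2. The same 5 motifs were searched, and neither window held a match.
Dlgap3: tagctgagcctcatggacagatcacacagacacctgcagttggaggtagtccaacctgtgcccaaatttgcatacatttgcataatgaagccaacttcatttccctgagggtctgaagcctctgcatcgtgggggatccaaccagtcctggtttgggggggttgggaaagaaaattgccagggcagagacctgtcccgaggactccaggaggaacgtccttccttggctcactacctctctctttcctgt
Dlg4: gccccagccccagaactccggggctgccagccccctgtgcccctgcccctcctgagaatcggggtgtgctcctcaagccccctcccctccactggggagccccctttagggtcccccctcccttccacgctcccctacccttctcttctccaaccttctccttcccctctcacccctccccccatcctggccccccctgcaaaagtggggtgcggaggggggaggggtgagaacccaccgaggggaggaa
Their GC content was 52.8% and 69.2%, with 3 and 5 CpG pairs, beside a median of 6 over all promoters.

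The 26 genes not called under CRMP1+CRMP2 include the whole Shank, Homer, neuroligin, neurexin and Lrrtm groups. Log2 fold changes were 0.08 for Shank1, 0.13 for Shank2 and -0.11 for Shank3, and 0.05, -0.03 and 0.04 for Nlgn1, Nlgn2 and Nlgn3. The half-width of the 95% interval had a median of 0.13 on the log2 scale over the 29 genes and reached 0.28 for the widest, so smaller differences could not be resolved at this sample size. Camk2b, with 0.02 (95% interval -0.07 to 0.11), was not called. Whether the 2 subunits differed from each other in their response was not tested.

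The companion genes had 13 calls of 77 (16.9%) under CRMP1+CRMP2, 7 higher and 6 lower, where 11.4% of all genes were called. Within batch 2 alone 1 of 77 was called (1.3%), where 1.01% of all genes were. Over all genes the 1445 calls became 8 with the litter as a random effect. The smallest p-values belonged to Lin7b, an adaptor of the Cask complex (-0.46 ± 0.09, adjusted p = 0.00643, edgeR), Tenm3, a teneurin (0.57 ± 0.13, adjusted p = 0.0148, edgeR), and Clstn3, a calsyntenin (-0.23 ± 0.05, adjusted p = 0.0162, edgeR).

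The other 3 patterns gave no call among the 29 genes. Under LDHA/B+CRMP1+STIP1, 0 genes passed in edgeR, where 0.0157% of all genes did, and 2 of 29 had an unadjusted p under 0.05, where 7.17% of all genes had. These were Homer3 (0.13 ± 0.05, adjusted p = 0.551, edgeR) and Dlg1 (0.10 ± 0.05, adjusted p = 0.645, edgeR). Homer3 ranged from 14.8 to 21.5 CPM in exposed and from 14 to 20.7 CPM in control animals of batch 1, and from 17.2 to 25.3 CPM and 15 to 21.8 CPM in batch 2, so that the groups overlapped in both batches. Within the batches the log2 difference of Homer3 was 0.09 ± 0.07 in batch 1 and 0.17 ± 0.08 in batch 2.

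Under CRMP1+GDA, 0 genes passed in edgeR, where 0% of all genes did, and only Camk2a had an unadjusted p under 0.05, where 3.65% of all genes had. It ranged from 85.2 to 133 CPM in the 6 animals with a median of 105 CPM, all of them below the batch 2 control median and 5 inside the batch 2 control range, and its log2 fold change was -0.41 ± 0.14 (adjusted p = 0.999, edgeR). In this pattern 24 of 29 estimates were below 0, where 6218 of 12641 over all genes were. Their median was -0.05, beside 0.00199 over all genes. The 29 estimates come from the same 6 animals of 3 litters and are not independent. Within batch 2 the Camk2a difference was -0.26 ± 0.11.

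Under STIP1+NSE, 0 genes passed in edgeR, where 0.0474% of all genes did, and only Baiap2 had an unadjusted p under 0.05, where 3.19% of all genes had. It ranged from 46.9 to 87.7 CPM with a median of 57.0 CPM, beside 43.1 to 74.1 CPM and a median of 50 CPM in batch 2 controls and 65.6 to 108 CPM in batch 1 controls. The log2 fold change was 0.25 ± 0.08 (adjusted p = 1.00, edgeR), and 0.23 ± 0.11 within batch 2. The highest animal, replicate 2 at 87.7 CPM, had 135 CPM of thalamus markers, the lowest sum of its group. In CRMP1+CRMP2, the thalamus-poor replicates 2 and 3 also held the highest Baiap2 values, 97.6 and 84.6 CPM. The part of slice content in these Baiap2 values was not tested.

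All 4 patterns were set against the same 24 controls, so their estimates are not independent. For Dlgap3 they were -0.31 under CRMP1+CRMP2, -0.10 under LDHA/B+CRMP1+STIP1, -0.13 under CRMP1+GDA and -0.12 under STIP1+NSE, all on the log2 scale. These estimates are adjusted for 1 surrogate variable. The unadjusted mean of Dlgap3 was 273 CPM in CRMP1+GDA and 268 CPM in STIP1+NSE, above the 257 CPM of all controls and below the 286 CPM of the batch 2 controls, and within batch 2 the log2 differences were -0.04 ± 0.11 and -0.08 ± 0.09. For Dlg4 the adjusted estimates were -0.16, -0.02, -0.09 and -0.02, and for Camk2a -0.39, -0.08, -0.41 and 0.04, in the same order. Only the first value of each gene passed the threshold.

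**Figure D5:**
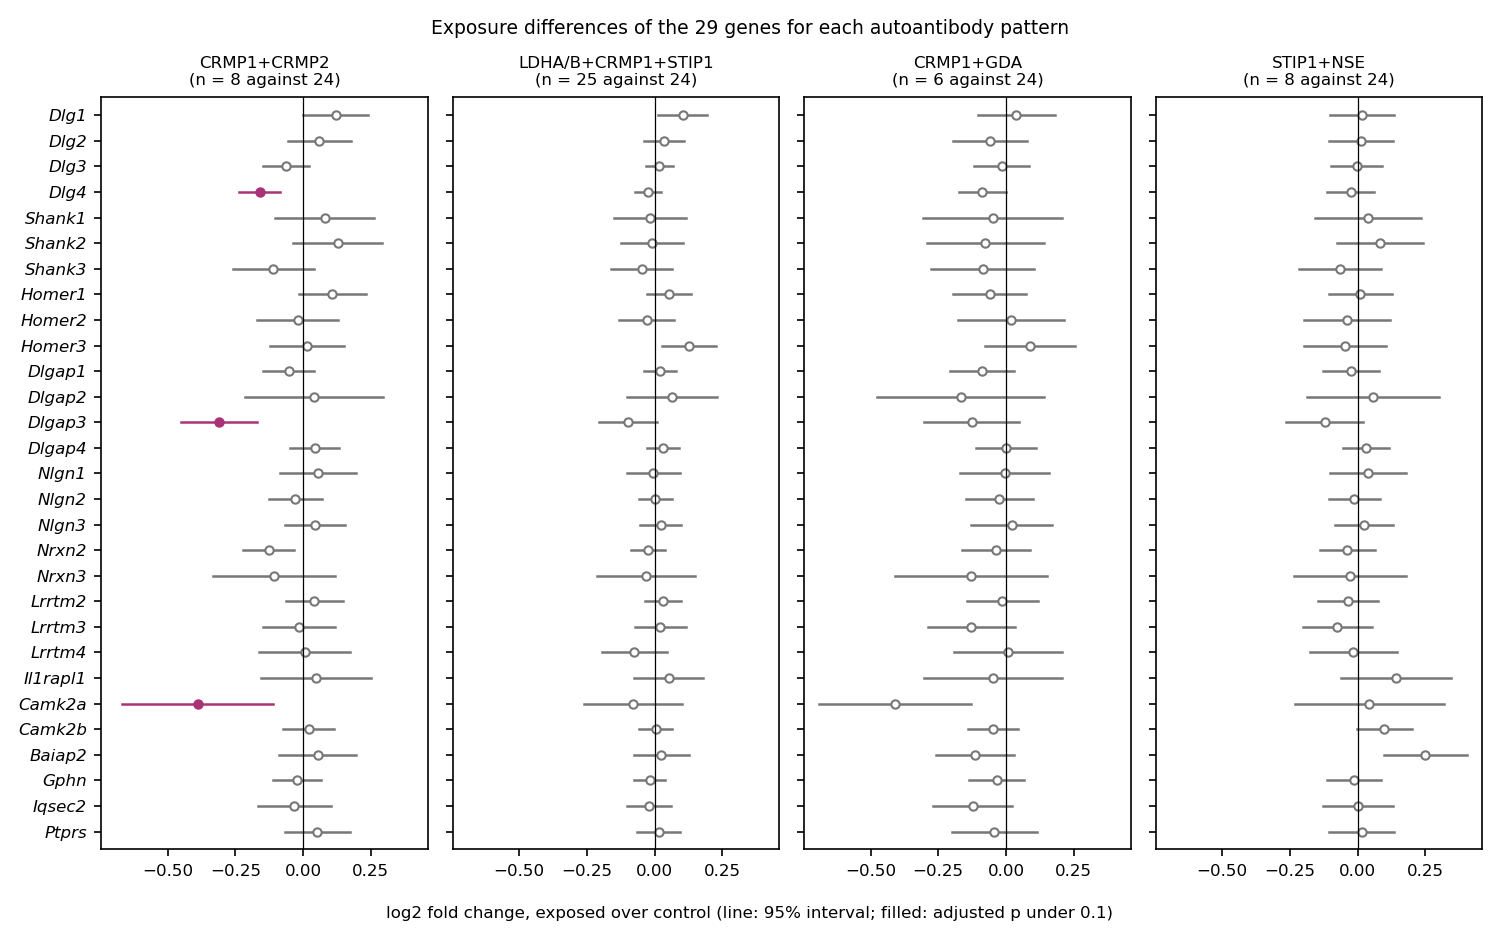
Log2 fold change against the 24 controls with 95% intervals (x axis) for the 29 genes (y axis) in 4 panels, 1 for each autoantibody pattern; filled points passed an adjusted p under 0.1. The 3 filled points are Dlgap3, Dlg4 and Camk2a under CRMP1+CRMP2, and intervals are narrowest for LDHA/B+CRMP1+STIP1 (n = 25).

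Differences between patterns were tested directly in the 31 exposed animals of batch 2, without controls. In the test of any difference among the 4 patterns, 0 of 29 genes passed in edgeR, where 0% of all genes did, and 1 had an unadjusted p under 0.05 (Homer3, adjusted p = 0.817, edgeR), where 4.94% of all genes had. For CRMP1+CRMP2 against the mean of the other 3 patterns, 0 passed, where 0% of all genes did, and 2 had an unadjusted p under 0.05, where 12.1% of all genes had. These were Dlg4 (-0.10 ± 0.04, adjusted p = 0.404, edgeR) and Lrrtm2 (0.10 ± 0.05, adjusted p = 0.41, edgeR). For Dlgap3 this contrast was -0.18 ± 0.11 and for Camk2a -0.18 ± 0.14. The lower values of the 3 genes in CRMP1+CRMP2 were thus not shown to differ from those in the other patterns.

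With all 47 MARA-AB exposed animals set against the 24 controls, 0 of 29 genes passed in edgeR, where 0.0321% of all genes did. An unadjusted p under 0.05 was reached by 2 genes, where 10.3% of all genes reached it, and these were Dlgap3 (-0.12 ± 0.05, adjusted p = 0.381, edgeR) and Dlg1 (0.09 ± 0.04, adjusted p = 0.42, edgeR). Dlgap3 ranged from 154 to 357 CPM in exposed and from 168 to 339 CPM in control animals, with medians of 236 and 253 CPM, so the groups overlapped nearly in full. Within batch 2 its log2 fold change was -0.18 ± 0.09 (adjusted p = 0.772, edgeR). The 29 log2 fold changes lay between -0.13 and 0.09 with a median of 0.01, and no 95% interval reached beyond -0.30 or 0.18. The smallest p-values among companion genes were those of Lin7b (-0.20), Clstn3 (-0.11) and Trio (0.11), none of which passed. Of the 77 companion genes, 0 were called in this comparison, under the other 3 patterns, between the sexes, in the 2 pattern contrasts or in the interaction.

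LDHA/B+CRMP1+STIP1 was the only pattern present in both batches. The exposure difference of the 29 genes was compared between batches with an interaction term, and 0 passed in edgeR, where 0.11% of all genes did. Lrrtm3 had an unadjusted p under 0.05, where 3.05% of all genes had, with a difference of 0.09 ± 0.06 in batch 1, -0.13 ± 0.07 in batch 2 and an interaction of -0.21 ± 0.09 (adjusted p = 1.00, edgeR). For Dlgap3 the exposure difference was -0.06 ± 0.06 in batch 1 and -0.21 ± 0.11 in batch 2, and for Dlg4 it was -0.02 ± 0.04 and -0.04 ± 0.04.

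Sex gave no call among these genes. Between 35 males and 36 females, 0 of 29 genes passed in edgeR, where 0.0641% of all genes did, and 2 had an unadjusted p under 0.05, where 4.66% of all genes had. These were Nlgn1 (-0.10 ± 0.04 in males relative to females, adjusted p = 0.991, edgeR) and Dlg1 (0.08 ± 0.04, adjusted p = 0.991, edgeR). Of the genes on the X chromosome, Dlg3 differed by -0.03 (95% interval -0.08 to 0.02), Nlgn3 by -0.000797 (-0.07 to 0.06), Iqsec2 by -0.06 (-0.14 to 0.02) and Il1rapl1 by 0.02 (-0.09 to 0.13) on the log2 scale. Median levels of Nlgn3, a neuroligin with autism mutations in humans, were 207 CPM in males and 204 CPM in females.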

How the data were processed

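RNA from a coronal brain slice of each of 71 PND2 rats was sequenced as poly-A-enriched, paired-end libraries. The deposited table holds raw counts per gene, which the authors made by aligning reads to rn7 with STAR 2.5.4b and counting with featureCounts, with no normalization. Its other column, the exon length in bases, was written by the counting tool. Strand and multi-mapping settings are not given in the sources used here. Among counts of 1 to 9, 74.5% were even, so halved counts were tried. No 2 libraries were identical.

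Groups, sex and litter come from the labels and batch from the title series. Counts were fitted in R 4.3.3 with edgeR 4.0.16 (TMM, robust quasi-likelihood), with 1 surrogate variable (sva 3.50.0) in the contrasts of exposed with control animals, group within batch in the contrast of sexes, batch and sex in the interaction and sex in the others, Benjamini-Hochberg adjusted over all genes tested, and called at adjusted p under 0.1. Genes needed at least 1 CPM in 8 samples (all animals) or over 1 CPM in 2 samples (other fits). At these depths 1 CPM is 24.9 to 36.2 counts. CPM and RPKM use TMM-scaled library sizes. Errors are SE, and intervals are 1.96 SE either side. All 29 genes are reported, and at most 3 companion genes per comparison, those with the smallest p. DESeq2 1.42.0, limma 3.58.1 voom with litter, and other alternatives are compared at the end. The code was tested on simulated data. The gene list, companion list, markers and tests were chosen with earlier results of these data known. Promoter windows are from RefSeq, GRCr8, while counts use rn7, and the 2 builds were not mixed.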

Additional observations from a re-analysis of the deposited data

Results flagged for a closer look

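In groups of 6 to 9 animals, each of the 29 genes was checked for an animal standing apart, that is a gap to the nearest animal that is large for the range of the group (Dixon's criterion at 95%). Of 116 checks, 10 met it (8.62%), and chance flags about 1 in 20 groups.

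In CRMP1+GDA, replicate 4 was highest for Nrxn3 (157 CPM, others 75.5 to 101 CPM), Nlgn2 (537 CPM, others 415 to 449 CPM), Nlgn3 (269 CPM, others 185 to 213 CPM) and Homer2 (39.1 CPM, others 25.9 to 29.5 CPM). This animal also had the highest thalamus sum of its group (1057 CPM) and the lowest cortical sum (546 CPM), and their part in its values was not tested. Replicate 3 of the same litter was highest for Dlg2 (145 CPM, others 121 to 127 CPM) and Homer1 (104 CPM, others 68.7 to 81.0 CPM), with the highest cortical sum of the group (1178 CPM). In CRMP1+CRMP2, Lrrtm2 was high in replicate 3 (82.4 CPM, others 63.2 to 70.4 CPM) and Il1rapl1 in replicate 5 (7.39 CPM, others 4.30 to 5.45 CPM). In LDHA/B+CRMP1+STIP1 of batch 2, Nlgn3 was high in replicate 4 (237 CPM, others 191 to 211 CPM). In STIP1+NSE, Nrxn2 was low in replicate 3 (1043 CPM, others 1255 to 1377 CPM). None of these values belongs to a gene called in its group.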

How the results depend on the processing

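The number of genes passing among the 29 stayed at 0 in every alternative tried for MARA-AB exposed animals, LDHA/B+CRMP1+STIP1, CRMP1+GDA, STIP1+NSE, sex, the 2 pattern contrasts and the interaction, DESeq2 among them, and also with each single litter left out for the 3 patterns. No alternative reversed the direction of a called gene. For CRMP1+CRMP2 the 3 calls became 0 with the litter as a random effect or with counts summed per litter, and 1 in batch 2 alone. They became 0 without the libraries over 20 CPM of pineal markers and 0 without replicates 2 and 3, alternatives chosen after seeing the data, as was the thalamus covariate (4). Leaving out 1 litter at a time gave 0 to 5 calls, with 0 without the litter of CRMP1+CRMP2 replicates 3 and 4 and 5 without 1 control litter. Camk2a kept its call in 4 of 12 alternatives and in 4 of 11 fits with 1 litter left out. Dlg4 kept its call in 8 of 12 and 10 of 11, and Dlgap3 in 7 of 12 and 10 of 11. Over all genes, the calls fell from 1445 to 8 with the litter as a random effect, to 0 with counts summed per litter and to 5 without replicates 2 and 3, and 127 were called in batch 2 alone, 491 with batch and sex as covariates, 322 without the pineal libraries and 41 to 2889 with 1 litter left out. DESeq2 gave 4 calls, 3 of them shared with edgeR. Between control batches 15 calls became 10 with the litter as a random effect and 7 with counts summed per litter (Dlgap3, Lrrtm2 and Ptprs lost as well as the 5 lost with the random effect), and leaving out 1 litter gave 12 to 15, while over all genes 5218 calls became 2813 and 1968. For all exposed animals, 4 genes of all tested became 398 with PC1 and PC2 as covariates, none of them among the 29. The cause of these changes was not tested, beyond the fewer replicates that summing or leaving out animals entails. Dlg1 kept its call in 1 of 7 alternatives and in 2 of 7 with 1 litter left out. No paired analysis was possible because, for exposure, replicate numbers were given in accession order and exposure does not vary within a litter. For sex, where littermates of both sexes exist, the litter as a fixed block gave 0 of 29 calls (1 at an unadjusted p under 0.05) and 9 over all genes. Littermates limit the effective number of replicates, and low genes such as Il1rapl1, Dlgap2 and Homer3 rest on few counts.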
